A study of Homo sapiens with 8 samples.

Results

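The cluster described here is the set of EZH2 peaks on hg18 chromosome 1, in band 1p36, whose midpoints lie from 2500001 to 3500000, a stretch of 1 Mb that holds PRDM16 from about 2975700 to 3345000. Its members were taken from all 4 EZH2 peak lists of the study, and there were 510 of 19721 peaks. TKO run 2 gave 339 of them and TKO run 1 gave 11, while NTKO run 2 gave 159 and NTKO run 1 gave 1. The stretch was chosen because TKO run 2 had many peaks there that NTKO run 2 lacked. The numbers, overlaps, heights and widths below are therefore a description of these libraries, and no test was run on them. With 2 samples of each line, an exact permutation test would allow no p below 0.333.

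The study used ChIP-seq, the sequencing of chromatin pulled down with an antibody, to locate EZH2 in the lines NTKO and TKO, both made from the t(4;14)+ myeloma line KMS11. KMS11 carries a wild-type MMSET allele and one rearranged with IGH by the translocation. NTKO cells lack a working wild-type allele and are MMSET-high through the rearranged one. TKO cells are the opposite knockout, MMSET-low, with the rearranged allele knocked out by gene targeting. Both lines were grown in RPMI1640 with serum and received no treatment, the same anti-EZH2 antibody was used throughout, and each of the 2 ChIP samples of a line, called run 1 and run 2, was compared by the authors with its own input. Whether each line derives from 1 clone is not stated in the sources used here.

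EZH2 is the catalytic subunit of Polycomb repressive complex 2, which trimethylates lysine 27 of histone H3 and keeps developmental genes silent. MMSET, also called NSD2, dimethylates lysine 36 of the same histone, a mark that hinders the complex on the nucleosome. PRDM16 encodes a zinc finger protein with a PR domain that directs brown fat cell identity and maintains hematopoietic stem cells, and the gene is rearranged in some myeloid leukemias. It is a long gene with much of its length in introns. In the RefSeq gene order, the protein-coding neighbors of PRDM16 are ACTRT2 on the near side and ARHGEF16 on the far side, and the microRNA gene MIR4251 lies inside it. These neighbors were not placed in hg18 coordinates, and base sequence was not analysed here.

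The window held a larger part of each TKO list than of either NTKO list. It contained 6.15% of all TKO run 2 peaks and 1.69% of all TKO run 1 peaks, against 1.50% and 0.0336% for NTKO run 2 and run 1. TKO run 1, with 11 of 651 peaks, and NTKO run 2 lay close together, and the choice of the window favored higher TKO shares. In run 2, TKO cells had 2.13 times as many peaks in the window as NTKO cells, whereas outside the window NTKO cells had 2.01 times as many as TKO cells. In run 1 the window held 11 TKO peaks and 1 NTKO peak, while NTKO cells had 4.64 times as many peaks as TKO cells elsewhere.

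Peaks covered 236.7 kb of the window in TKO run 2 and 3.58 kb in TKO run 1, against 92.5 kb and 0.169 kb in the NTKO libraries of the same runs. TKO run 2 thus covered 2.56 times the length covered in NTKO run 2. Over the whole lists it covered 0.43 times the length covered in NTKO run 2. Peak levels and summit heights are given in reads as the lists hold them. The authors normalized each data set to its input, but whether the listed values include this is not stated, and the depth of the libraries is unknown from the lists. The mean level over the called peaks of the window was 44.7 reads in NTKO run 2 and 45.3 in TKO run 2. Outside the window it was 44.7 and 43.0 reads. These means are over different sets of peaks in each list, so they do not compare the lines at the same places. Both run 2 lists covered 75.8 kb in common. A further 160.9 kb was covered only in TKO run 2 and 16.7 kb only in NTKO run 2. The choice of the window favors bases covered only in TKO run 2, and this split was not computed over the whole lists.

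When the genome was divided into windows of 1 Mb in the same phase, this window held the most TKO run 2 peaks, and it was at place 10 for TKO run 1, 12 for NTKO run 2 and 315 for NTKO run 1. The next TKO run 2 windows lay on chromosome 20 from 60.5 to 61.5 Mb (216 TKO and 273 NTKO peaks) and on chromosome 11 from 1.5 to 2.5 Mb (211 and 235 peaks). In both of these NTKO run 2 had more peaks than TKO run 2, by 1.26 and 1.11 times. Among the 46 windows with at least 20 TKO run 2 peaks, TKO run 2 had more peaks than NTKO run 2 in 3 (6.52%).

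**Figure D1:**
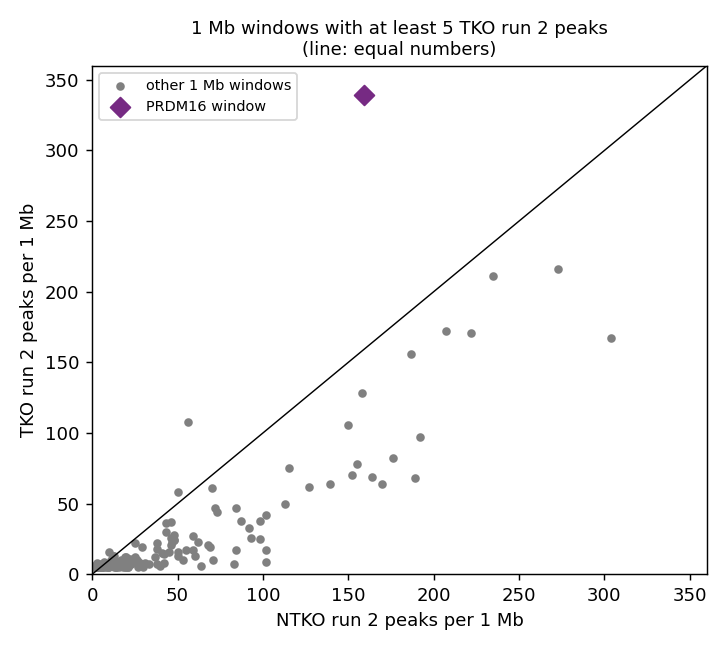
Number of EZH2 peaks per 1 Mb window in NTKO run 2 (x axis) and TKO run 2 (y axis), for windows with at least 5 TKO run 2 peaks. The diamond is the PRDM16 window with 159 NTKO and 339 TKO peaks, which lies above the line of equal numbers, while most windows (grey) lie below it.

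The balance between the lines differed among the 3 parts of the window. In the 475.7 kb before PRDM16 there were 97 TKO run 2 peaks and 35 NTKO run 2 peaks, covering 55.6 and 14.8 kb. Inside PRDM16 there were 179 and 49 peaks, covering 125.1 and 20.0 kb. In the 155.0 kb after PRDM16 the order turned, with 63 TKO run 2 and 75 NTKO run 2 peaks covering 56.0 and 57.7 kb. In run 1, the part before PRDM16 held 1 TKO peak, PRDM16 held 8 and the part after it held 2, and the only NTKO run 1 peak lay after PRDM16.

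Peaks of TKO run 2 thus lay over 33.9% of PRDM16, against 5.41% for NTKO run 2. The run 1 peaks covered 0.797% of the gene in TKO cells and 0% in NTKO cells. Within the gene, 19.5 kb was covered in both run 2 lists, 105.6 kb only in TKO run 2 and 0.466 kb only in NTKO run 2. Nearly all bases of the gene called in NTKO run 2 (97.7%) were therefore also called in TKO run 2, but 15.6% of the TKO run 2 bases were called in NTKO run 2. The choice of the window favors this difference, and the shares of bases over the whole lists were not computed.

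**Figure D2:**
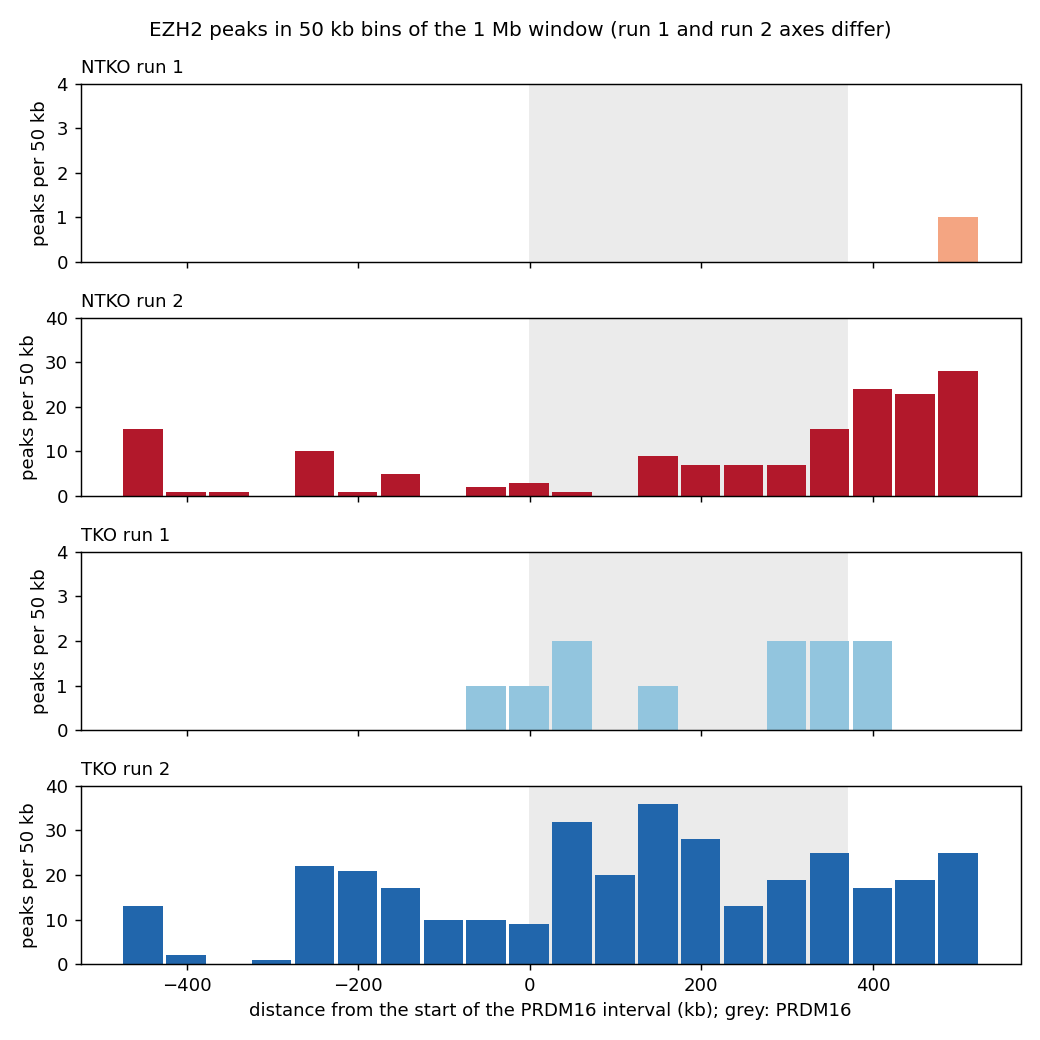
EZH2 peaks per 50 kb bin of the window in each of the 4 libraries, against the distance of the bin from the start of the PRDM16 interval (grey). The TKO run 2 bins inside PRDM16 reach 36 peaks, the NTKO run 2 bins rise toward the end of the window to 28, and the run 1 panels, with their own axis, hold at most 2 peaks per bin.

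The fullest 50 kb bin of TKO run 2 lay inside PRDM16, from 3100001 to 3150000, with 36 TKO peaks and 9 NTKO peaks in run 2. The TKO peaks covered 50.5% of that bin. The bin from 3000001 to 3050000 was nearly as full in TKO run 2, with 32 peaks over 47.5% of its length, and NTKO run 2 had 1 peak there. From 3050001 to 3100000 TKO run 2 had 20 peaks and NTKO run 2 had 0. NTKO run 2 was fullest at the far end, from 3450001 to 3500000, with 28 peaks beside 25 TKO peaks, and the NTKO run 1 peak fell in the same bin. TKO run 1 had at most 2 peaks in a bin.

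The longest stretches without an NTKO run 2 peak, picked after the values were seen, were examined for TKO peaks. Between neighboring NTKO run 2 peaks, the 63.6 kb from 3049170 to 3112728 held 30 TKO run 2 peaks that covered 17.2 kb, with a highest summit of 105 reads. The 60.8 kb from 2988085 to 3048894 held 36 TKO run 2 peaks over 23.4 kb, with a highest summit of 119 reads. Before PRDM16, the 90.2 kb from 2838088 to 2928329 held 17 TKO run 2 peaks, and the 98.9 kb from 2609197 to 2708060 held 2. TKO peaks were thus dense in the stretches inside the gene and sparse in the longest one before it. The longest stretch of the window without a TKO run 2 peak, 126.7 kb from 2565560 to 2692250, held 1 NTKO run 2 peak, so this part was nearly empty in both lines.

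Of the 339 TKO run 2 peaks of the window, 238 shared no base with an NTKO run 2 peak (70.2%, Wilson 95% confidence interval 65.1 to 74.8, counting error only), against 23.7% of all TKO run 2 peaks. Since the window was chosen on this contrast, nothing is read from that distance. The share varied along the window. It was 82.5% before PRDM16 (80 of 97 peaks), 82.7% inside PRDM16 (148 of 179) and 15.9% after it (10 of 63). In the last 50 kb 0 of the 25 TKO run 2 peaks lacked an NTKO peak.

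In the other direction, 29 of the 159 NTKO run 2 peaks had no TKO run 2 peak (18.2%), against 70.7% of all NTKO run 2 peaks. Only 2 of these 29 lay inside PRDM16, whereas 9 lay before it and 18 after it. Peaks that are missing from a list did not reach the threshold of the peak caller. The lowest window peak in either run 2 list had a summit of 49 reads, which is no fixed floor. Elsewhere the lowest summits were 23 reads in NTKO run 2 and 28 in TKO run 2. Binding that did not reach the threshold could not be seen.

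**Figure D3:**
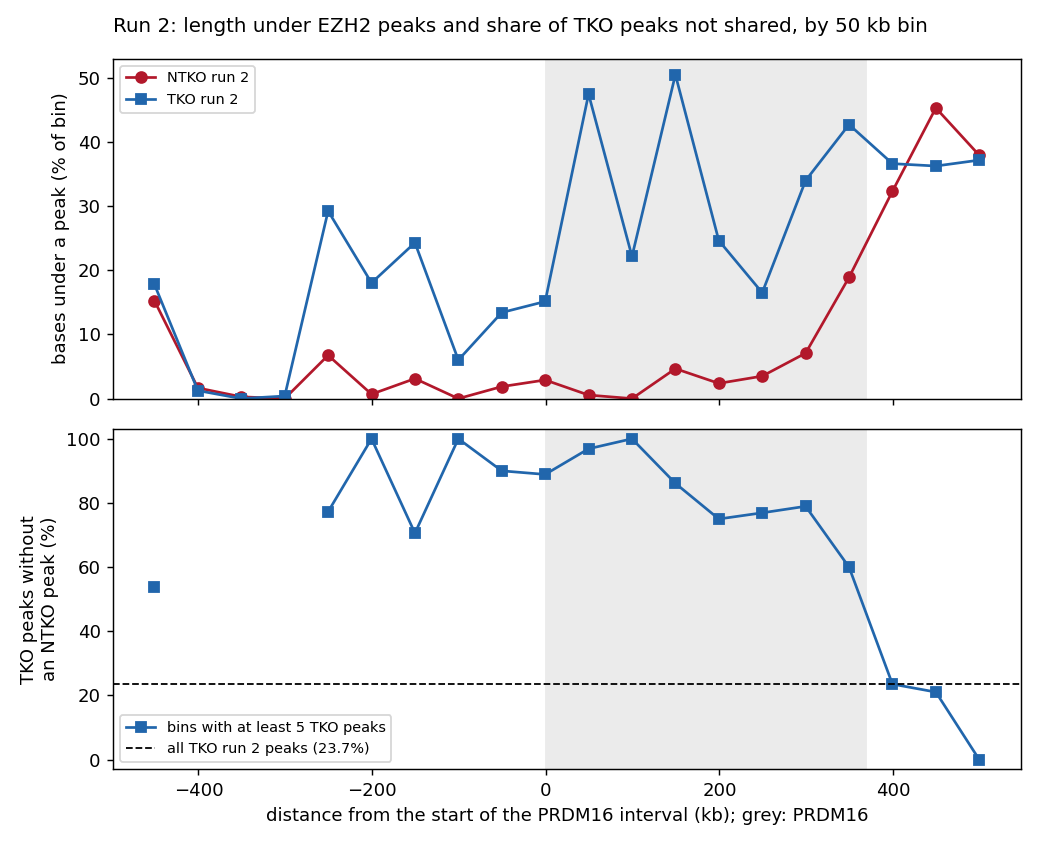
Upper panel, bases under a run 2 peak as a percentage of each 50 kb bin for NTKO (circles) and TKO (squares). Lower panel, share of TKO run 2 peaks without an NTKO run 2 peak in bins with at least 5 TKO peaks, with the share over all TKO run 2 peaks (23.7%) as a dashed line. TKO cover exceeds NTKO cover in each bin inside PRDM16 (grey). In the last 2 bins NTKO cover is the larger, and in the last bin the share falls to 0%.

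The highest TKO run 2 peak of the window lay just after PRDM16 from 3365480 to 3373044, with a summit of 162 reads and a width of 7565 bp, and was also the widest. The next lay inside the gene near its end, from 3340825 to 3341658, with 158 reads. The third, from 2928070 to 2930048, lay before the gene and had 151 reads. All 3 shared bases with NTKO run 2 peaks. The highest NTKO run 2 peak, from 3498483 to 3499908 at the far end of the window, had 146 reads, followed by 125 reads from 3365514 to 3371663 and 122 reads from 3329813 to 3331508. The widest NTKO run 2 peak ran from 3445471 to 3452408, 6938 bp with 104 reads. For scale, the highest summits anywhere in the lists were 335 reads in NTKO run 2 and 332 in TKO run 2, so the window was dense rather than high.

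At the start of PRDM16 itself no peak was called. The TKO run 2 peak closest to it, from 2980971 to 2981512 with 64 reads, began 5.27 kb inside the gene, and the closest NTKO run 2 peak, from 2985587 to 2985806 with 56 reads, began 9.89 kb inside it. The gene interval is known here only approximately, which is small against these distances. Further in, TKO run 2 had a peak of 4453 bp from 2984088 to 2988540 with 149 reads. NTKO run 2 had 3 separate peaks over the same bases, the highest with 83 reads.

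**Figure D4:**
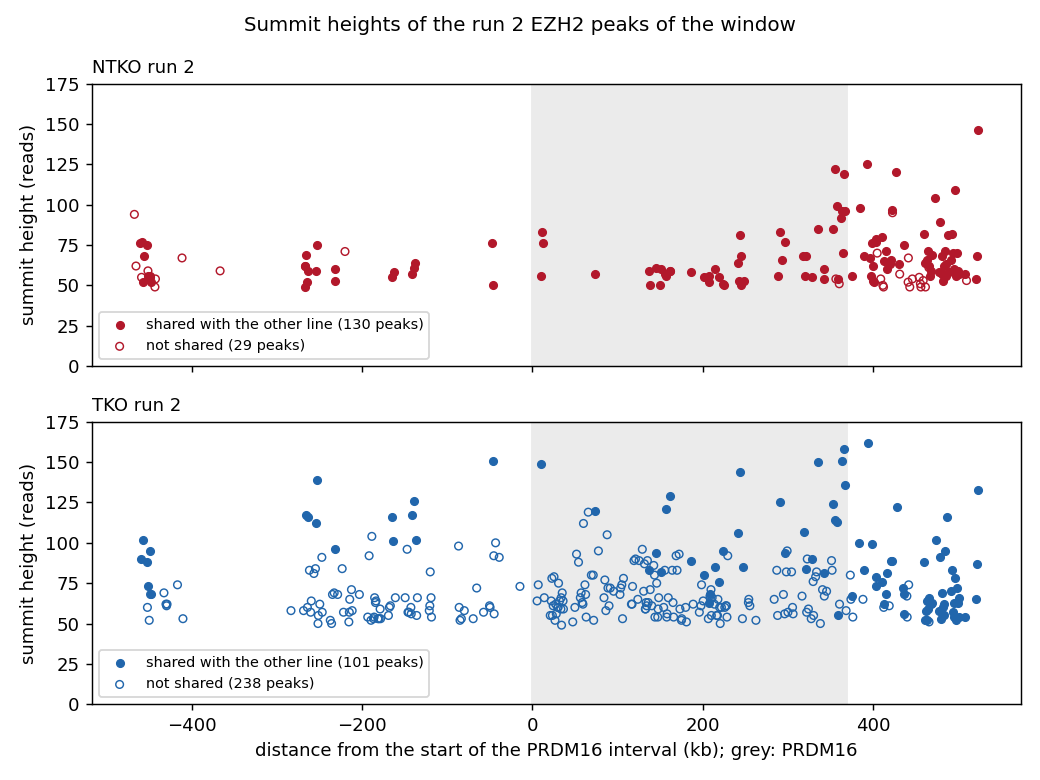
Summit height in reads of every run 2 peak of the window against its distance from the start of the PRDM16 interval (grey), NTKO above and TKO below, filled where the peak shares bases with the other line. The 238 open TKO peaks lie mostly before and inside PRDM16 and reach 119 reads, and the highest filled TKO peaks reach 162.

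TKO peaks without an NTKO peak were lower and narrower than the shared ones. In the window their summits ranged from 49 to 119 reads with a median of 62, and their median width was 318.5 bp. The 101 shared TKO peaks were 781 bp wide at the median, with a median summit of 84 reads. Unshared TKO peaks elsewhere in the genome had a median of 57 reads and 215 bp. The unshared NTKO peaks of the window were lower still, with a median of 54 reads and 169 bp. Chosen after its value was seen, the highest unshared TKO run 2 peak lay inside PRDM16 from 3039263 to 3043343, with 119 reads over 4081 bp.

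Across all their members, the run 2 lists of the window had heights like those of the rest of their lists. The median summit was 60 reads in NTKO run 2 and 66 in TKO run 2, against 63 and 65 outside the window. Median width was 336 bp in NTKO run 2 and 366 bp in TKO run 2, against 378 and 350 bp outside. Peaks with a −log10 p under 20 made up 53.5% of the NTKO run 2 peaks of the window and 38.6% elsewhere. In TKO run 2 the values were 40.7% and 36.7%, so weak calls were more common in the window in both lines, and by a larger margin in NTKO cells.

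Peaks of the window lay close together. The median gap between neighbors was 536 bp in TKO run 2 and 712 bp in NTKO run 2, whereas it was 1902 and 1012 bp outside. Gaps of 1 kb or less made up 67.5% of all gaps in TKO run 2 and 57.6% in NTKO run 2. When peaks 1 kb or less apart were joined, the 339 TKO run 2 peaks became 110 regions and the 159 NTKO run 2 peaks became 67. The widest joined regions lay after PRDM16 in both lines, 18.5 kb made of 11 peaks in TKO run 2 from 3446500 to 3465015 and 24.6 kb made of 19 peaks in NTKO run 2 from 3434404 to 3458963. Inside PRDM16 TKO run 2 had a joined region of 12.5 kb made of 8 peaks from 3037229 to 3049717. Neighboring peaks this close are not independent of each other.

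Where both lines had a peak in run 2, the TKO peak was usually the higher one. Pairing each peak with the one it overlapped most, in both directions, gave 94 pairs. NTKO summits averaged 70.9 ± 18.7 reads and TKO summits 91.5 ± 28.2 (SD over the 94 pairs, which are not replicates). The log2 ratio of NTKO to TKO height had a median of -0.33, with a binomial 95% interval from -0.43 to -0.18. That interval takes the 94 neighboring pairs as independent and does not measure the spread between samples. The TKO peak was higher in 71 pairs, the NTKO peak in 20, and 3 were equal. Over all pairs of the 2 lists, the TKO peak was the higher one in 25.4%. The TKO peak was also wider in 70 of the 94 pairs, with a median log2 width ratio of -0.75, while the TKO peak was wider in 19.4% of all pairs. Outside the window the medians were 0.27 for height and 0.86 for width. In the window, 22 TKO run 2 peaks overlapped 2 or more NTKO run 2 peaks, and the reverse held for 5 NTKO run 2 peaks. A pair holds only 1 of such pieces, so its width ratio can set a whole peak against a piece. The median height ratio in the window depended on how pairs were made, and was -0.51 with peaks merged within 1 kb and -0.12 over the 42 pairs in which 50% of each peak was shared.

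The height ratio followed position. Before PRDM16 the TKO peak was the higher in all 17 pairs, with a median log2 ratio of -0.79. Inside PRDM16 it was higher in 30 of 31 pairs, with a median of -0.54. After PRDM16 it was higher in 24 of 46 pairs and the NTKO peak in 19, with a median of -0.02. The 2 lowest ratios were both inside PRDM16. From 3137015 to 3137446 the NTKO summit was 59 reads and that of the TKO peak over it was 129 (log2 ratio -1.13), and from 3131782 to 3132042 the summits were 57 and 121 reads (-1.09). The 2 highest ratios both lay after the gene, with 109 NTKO and 78 TKO reads at 3471420 to 3472495 (0.48) and 64 and 52 reads at 3436460 to 3436966 (0.30).

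**Figure D5:**
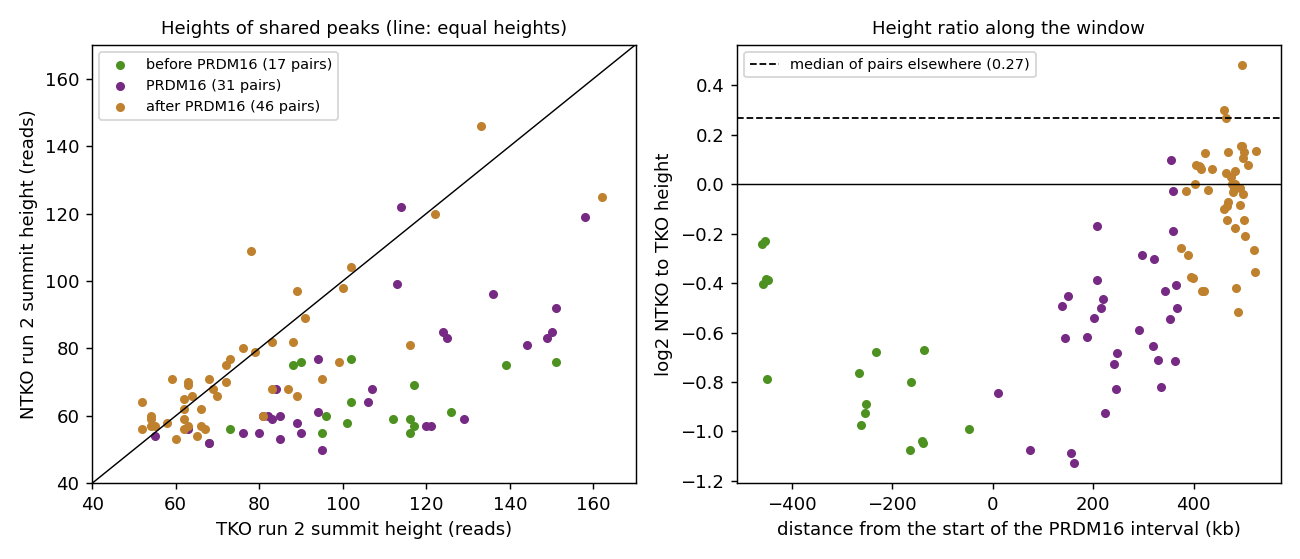
Left, summit heights in reads of the 94 pairs of run 2 peaks shared by both lines, colored by their place before, inside or after PRDM16, with the line of equal heights. Right, log2 ratio of NTKO to TKO height of the same pairs against distance from the start of the PRDM16 interval, with the median of pairs elsewhere (0.27) dashed. Pairs before and inside PRDM16 lie almost entirely below 0 and those after it scatter around 0.

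No region of the window had a peak in all 4 lists. Joining overlapping peaks of the 4 lists gave 361 regions, of which 235 had a peak only in TKO run 2, 86 in both run 2 lists, 29 only in NTKO run 2 and 3 in both TKO runs only. The other 8 had a peak in 3 lists. At 3365480 to 3373044, the summits were 125 reads for NTKO run 2, 41 for TKO run 1 and 162 for TKO run 2, and NTKO run 1 had no peak. At 3340825 to 3341658 they were 119, 40 and 158 reads in the same order. At 2928070 to 2930048 they were 76, 42 and 151 reads, and at 2984088 to 2988540 they were 83, 52 and 149 reads. In these 4 regions TKO run 2 was the highest and TKO run 1 the lowest of the libraries with a peak. The choice by TKO run 2 height favors TKO run 2 as the highest. Outside the window, too, the median summit was lowest in TKO run 1, at 44 reads.

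The region at 3329479 to 3331508 inside PRDM16 had a summit of 122 reads for NTKO run 2, 44 for TKO run 1 and 114 for TKO run 2. The region at 3498323 to 3499908 was the only one with an NTKO run 1 peak. Its summits were 52 reads in NTKO run 1, 146 in NTKO run 2 and 133 in TKO run 2. In both of these the NTKO run 2 summit was the higher of the run 2 lists. In the remaining regions with 3 lists, the NTKO and TKO run 2 summits were 68 and 107 reads at 3292998 to 3296227. At 3397471 to 3397980 they were 97 and 89 reads. Each run 1 summit of the window was below the run 2 summits at the same place.

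All 11 TKO run 1 peaks of the window were found again in TKO run 2, against 83.6% of all TKO run 1 peaks. Since the window was chosen for its many TKO run 2 peaks, nothing is read from that difference. None of the 11 shared a base with an NTKO run 1 peak, against 17.7% of all TKO run 1 peaks that lacked one. The window held only 1 NTKO run 1 peak, of 169 bp, so such sharing was hardly possible there. An NTKO run 2 peak overlapped 7 of the 11. The summits of the 11 ran from 38 to 52 reads, close to the TKO run 1 median of 44 elsewhere, and 10 of them had a −log10 p under 20. The 4 without an NTKO run 2 peak were all inside PRDM16. They lay at 3041068 to 3041236 (42 reads), 3041860 to 3041966 (38 reads), 3111002 to 3111162 (45 reads) and 3297585 to 3297740 (39 reads). The first pair fell within the highest unshared TKO run 2 peak described above.

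The other 7 lay at 2928936 to 2929227 (42 reads), 2986231 to 2987819 (52 reads), 3293827 to 3294016 (44 reads), 3331287 to 3331444 (44 reads), 3341007 to 3341419 (40 reads), 3368201 to 3368326 (41 reads) and 3397662 to 3397878 (45 reads). The second of these was the highest and the widest TKO run 1 peak of the window, with 1589 bp. In the reverse direction, 2.95% of the TKO run 2 peaks of the window had a TKO run 1 peak, against 7.92% elsewhere. NTKO run 2 peaks were found again in NTKO run 1 in 0.629% of cases in the window and 19.3% elsewhere. The single NTKO run 1 peak, at 3499503 to 3499671 with 52 reads, overlapped peaks in both run 2 lists.

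On either side of the window NTKO run 2 had more peaks than TKO run 2. It already had more in the first 50 kb of the window, with 15 against 13 peaks, and after PRDM16. The larger TKO run 2 numbers lay mainly from 2700001 to 3300000, a stretch picked after the values were seen. It held 237 TKO run 2 and 52 NTKO run 2 peaks. In the 500 kb before the window NTKO run 2 had 96 peaks and TKO run 2 had 74, and 13.5% of these TKO peaks lacked an NTKO peak. In the 500 kb after it the numbers were 70 and 60, and 1.67% of the TKO peaks lacked an NTKO peak. Over all TKO run 2 peaks that share was 23.7%. NTKO run 2 thus had 1.30 times as many peaks as TKO run 2 before the window and 1.17 times as many after it. Both ratios were below the 2.01 found outside the window as a whole. The shared peaks of the flanks had median log2 height ratios of 0.23 before and 0.29 after the window, near the 0.27 of the genome outside the window. NTKO run 1 had 10 and 16 peaks in these flanks, and TKO run 1 had 0 and 1.

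The edges of the window cut through no gap in the signal at its far end. The last TKO run 2 peak inside it had 133 reads and the first outside had 127, and the NTKO run 2 values were 146 and 145 reads. At the near edge the last TKO run 2 peak outside had 67 reads and the first inside had 90, and the NTKO run 2 values were 70 and 94 reads.

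A second stretch of the genome with more TKO than NTKO peaks in run 2 lay on chromosome 9 from 136.5 to 137.5 Mb. It held 108 TKO run 2 and 56 NTKO run 2 peaks. Of these TKO peaks 72.2% lacked an NTKO peak, against 23.7% of all TKO run 2 peaks. The stretch is named here for its larger number of TKO run 2 peaks, which favors a high share. In run 1 it had 1 TKO and 2 NTKO peaks, too few to compare the lines. Over the whole lists NTKO run 1 had 4.57 times as many peaks as TKO run 1. The difference between both stretches was not tested. Input signal was not used here, and the number of copies of the PRDM16 stretch in each line was not tested.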

How the data were processed

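EZH2 ChIP-seq was performed by the authors in NTKO and TKO cells, with 2 samples of each line and 4 inputs, which were used only in their peak calls. The authors used BWA for alignment to hg18, dropped repeated reads at 1 position, and ran ChIPseeqer on every ChIP sample with its matched input (2-fold difference, −log10 p of at least 15), without pooling. The paper reports a higher false discovery rate for either TKO list than for either NTKO list, highest for TKO run 1. The deposited lists have no header. The deposited score column holds the log10 p-value of a peak, the deposited signal columns the average read level over a peak and its summit height, and the deposited percent column the place of the summit. The methods describe a normalization of each data set to its input. Whether the deposited heights, which are whole numbers, include it is not stated, and the depth of the libraries is unknown from the lists. Starts were raised by 1, since width equals end minus start.

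Peaks were assigned to the window by midpoint and counted as shared with at least 1 bp in common. Peaks were paired where each overlapped the other most. The run 2 lists gave the main values, since they were the ones used further in the study. The members, the PRDM16 interval and the alternatives were chosen with earlier results of these data known. Named peaks were the 3 highest of each run 2 list, the run 1 peaks and the 6 regions in 3 lists highest in TKO run 2. The 2 lowest and 2 highest height ratios, the widest peaks, those nearest the start of PRDM16 and the fullest bins were also named. The alternatives were run 1 or both runs, −log10 p of at least 20, merging within 1 kb, PRDM16 alone, 50% overlap, equal numbers of peaks and centring. Overlap, ratio and merging computations were tested on simulated data. Gene order was taken from the RefSeq table of GRCh38.p14, with no coordinates. Computations were run in Python 3.11.15 with pandas 2.3.3, numpy 2.4.6 and scipy 1.17.1, and plots were drawn with matplotlib 3.10.9.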

Additional observations from a re-analysis of the deposited data

How the results depend on the processing

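The main values rest on run 2 alone, so leaving out run 1 returns them, and the SD between the 2 runs is set by the run 1 values themselves and gives no separate measure of stability. Settings other than the run gave 20 values. All 15 log2 ratios among them were below 0, a direction that the choice of the window favors, and the 5 shares of unshared TKO peaks ranged from 59.1% to 87.6%. For height, 4 of 5 values lay outside the interval of the median, which takes neighboring pairs as independent. With run 1 in place of run 2, the log2 NTKO to TKO ratio in the window went from -1.09 to -3.46 for peak number, from -1.36 to -4.40 for covered length and from -2.03 to -5.65 for the share of each list, and the percentage of TKO peaks that lacked an NTKO peak from 70.2% to 100%. These run 1 values rest on 11 TKO peaks and 1 NTKO peak. With a replicate block, the plain mean of the values of both runs, the results were -2.28, -2.88, -3.84 and 85.1%. The block pairs the lines by run number alone, and the labels do not say that such samples share a batch. It weighs both runs equally, although the run 1 values rest on few peaks. The median log2 height ratio of shared peaks was -0.33, and -0.51 with peaks merged within 1 kb, -0.54 inside PRDM16 only, -0.12 where 50% of each peak had to be shared (42 pairs) and -0.60 when centred on pairs outside the window. Run 1 had no shared pair, so that height has no value there or under the block. With equal numbers of peaks, 71 NTKO run 2 peaks stood against 339 TKO run 2 peaks. Library depth and the threshold of the peak caller limit every count, because a peak absent from a list may lie just under that threshold.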
